A study of Rattus norvegicus with 6 samples.

Results

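The 10 growth factors described here are secreted proteins through which cells act on blood vessels and on neighbouring muscle: the vascular endothelial growth factors Vegfa, Vegfb and Vegfc and their relative Pgf, the angiopoietins Angpt1 and Angpt2, the hepatocyte growth factor Hgf, the fibroblast growth factor Fgf2, the platelet-derived growth factor A chain Pdgfa, and the neuregulin Nrg1. They were chosen by symbol, through the RefSeq accession of each probe, and are 10 of the 15443 named genes on the array, which holds 27455 features when unnamed probes are counted. All 10 were on the array, with 15 probes among them, and the brightest probe stood for each gene. Of the 10, 7 were read well above background on every array, and Angpt2, Hgf and Nrg1 were not.

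Each of these ligands works by bringing receptor tyrosine kinases together on a target cell. The VEGF ligands act mainly on endothelial cells through Flt1, Kdr and Flt4, the angiopoietins act on the endothelial receptor Tek, and the remaining ligands reach stromal, muscle or epithelial cells through Met, the Fgfr family, Pdgfra and the Erbb family. In the heart, cardiomyocytes are a main source of Vegfa and Vegfb, endothelial cells make Nrg1, and release of such factors is the effect usually discussed when adipose-derived stem cells (ADSCs, stromal cells grown from fat) are given after a myocardial infarct.

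Total RNA was measured on 6 one-colour arrays, all from 13-week-old Sprague Dawley rats. In culture, 1 array held ADSCs labelled with 124I-HIB (hexadecyl-4-124I-iodobenzoate, a fat-soluble tracer carrying a positron-emitting iodine) and 1 held unlabelled ADSCs, both at day 14 of culture. In vivo, 2 arrays held infarcted myocardium given 124I-HIB-labelled ADSCs by injection into the heart wall (treated, replicates 1 and 3), 1 held infarcted myocardium injected with PBS, and 1 held sham-operated myocardium, all dated to day 21, counted in the labels from a sham operation even for infarcted hearts. Hearts given unlabelled cells were not analysed here, and the labels do not say whether the treated pair came from separate animals, so the tests speak to the spread among the arrays at hand, and that spread may be technical.

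Levels are given as log2 of the signal over the array's own 75th percentile, so 0 is the 75th percentile and each unit is a doubling. That percentile was a signal of 2615 and 2360 on the labelled and unlabelled cell arrays, 1276 and 1058 on the treated arrays, 1120 on the PBS array and 772 on the sham array. The share of probes well above background lay between 64.4% and 69.4%, with no saturated spots. Precision is limited by how few arrays there are. The labels were set against markers: of 10 endothelial markers, 5 and 6 were well above background in labelled and unlabelled cells (Tie1, Emcn, Esam and Cldn5 in neither), and 10 on each myocardial array. Of 15 cardiomyocyte markers, 9, with Myh6, Myh7 and Actn2 among them, were not well above background on either cell array, against 13 to 15 detected per myocardial array. Their summed linear level (relative to the 75th percentile) was 1.79 and 1.74 in the cells, against 1795 to 2458 in myocardium. The cell sum came mostly from Ryr2, at 0.31 in labelled and 0.16 in unlabelled cells, which was only 2.24-fold lower than in myocardium. Of 15 fibroblast and stromal markers, 14 were detected per array, all but Tcf21 in the cells and all but Thy1 in myocardium. The sum was 387 and 384 in the cells, against 72.1 to 93.8 in myocardium. That cell sum came mostly from the collagens Col1a1, Col1a2 and Col3a1, at 6.11 to 6.94. Of these 15 markers, 10 were higher in the cells, 2 lower (Tcf21 and Mcam) and 3 not called. The shares of all features were 32.9% higher and 35.6% lower. For smooth muscle and pericyte markers the sum was 20.6 and 16.8 in the cells against 61.9 to 67.7 in myocardium. That myocardial sum came mostly from Des, at 5.24 to 5.54, a gene cardiomyocytes also express. Of these 11 markers, 4 were higher in the cells (Acta2, Cnn1, Tagln and Pdgfrb) and 7 lower, beside 32.9% and 35.6% of all features. The sum was 2.09 and 1.90 in the cells against 13.9 to 18.1 for leukocyte markers, and 0.53 and 0.57 against 0.59 to 1.57 for Schwann cell markers. In these bulk samples, fewer cells of a type and less RNA per cell cannot be told apart.

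Cultured ADSCs and myocardium differed in most of these factors, as they did in most of the features tested. Vegfc and Fgf2 were higher in the cells, Vegfa, Vegfb, Pgf, Angpt1 and Angpt2 were lower, and Pdgfa and Nrg1 did not pass the test. Hgf also passed as higher, but not with normexp background correction, which takes the number higher to 2. With limma over all 21177 features, 8 of the 10 members passed an adjusted p under 0.05, 3 higher and 5 lower, and all 8 also differed by at least 2-fold. The share of all features that passed was 68.5%, with 32.9% higher and 35.6% lower. A 2-fold difference besides was reached by 45.2% of all features. The 2 cell arrays lay outside the range of the 4 myocardial arrays for the same count of members, 8 of 10, against 77.6% of features. The median difference was -0.77 over the members and -0.05 over all features. The test pools conditions within each source and has 4 residual degrees of freedom, and an exact one-sided permutation test of 2 against 4 arrays cannot go below p = 0.0667. Without the PBS array the counts were again 3 higher and 5 lower.

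**Figure D1:**
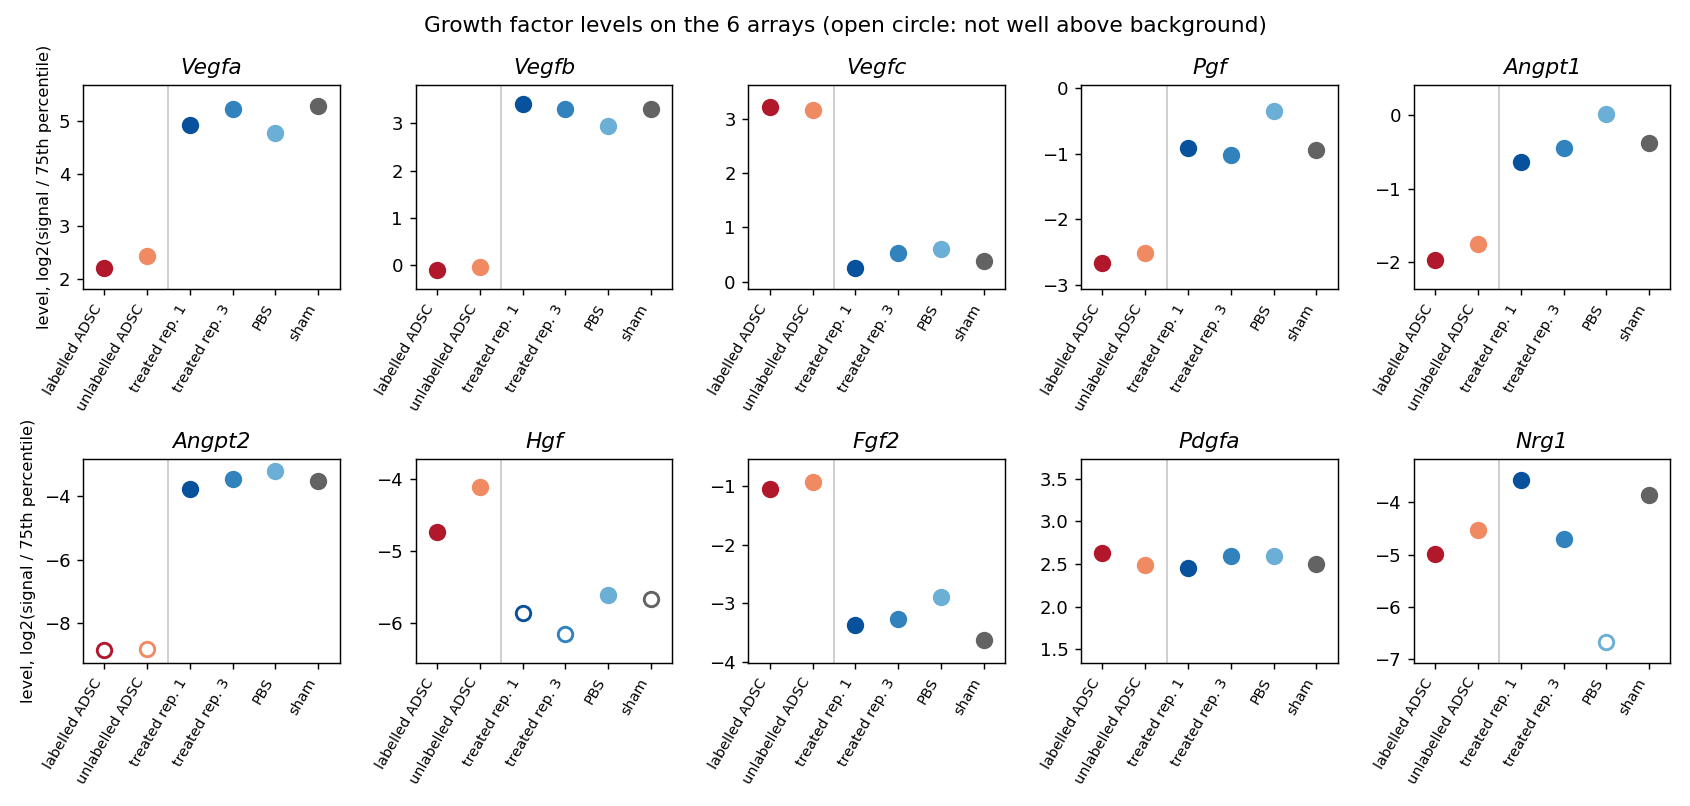
Level of each growth factor on the 6 arrays, as log2 of signal over the array's 75th percentile (vertical axis, its own range in each panel). Points are single arrays, with no error bar, and open circles were not well above background: Angpt2 in both cell arrays, Hgf in 3 myocardial arrays and Nrg1 on the PBS array. The vertical line parts the cell arrays (left) from myocardium (right).

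Vegfa is the main inducer of endothelial growth and vessel permeability and acts through Kdr and Flt1. Its level was 2.20 in labelled and 2.43 in unlabelled cells, against 4.92 and 5.23 in treated myocardium, 4.77 on the PBS array and 5.29 on the sham array. Both cell arrays lay well below every myocardial array. The difference, cells minus myocardium, was -2.74 (SE 0.19, 2 against 4 arrays), 6.66-fold lower in the cells, with limma's adjusted p = 4.25e-05. Vegfa had 4 probes from 2 transcript accessions. The other probes gave differences of -2.82, -2.94 and -2.42, so each placed the cells below myocardium.

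Vegfb, a ligand of Flt1 tied to fatty acid handling in muscle and heart, was at -0.10 and -0.03 in labelled and unlabelled cells, against 3.41 and 3.31 in treated, 2.95 in PBS and 3.30 in sham myocardium. The groups were far apart and the PBS array was the lowest of the 4 myocardial arrays. The difference was -3.31 (SE 0.16), 9.93-fold lower in the cells (limma, adjusted p = 9.93e-06). Pgf, placental growth factor, which binds Flt1 and not Kdr, was at -2.67 and -2.51 in the cells, against -0.92 and -1.02 in treated, -0.36 in PBS and -0.94 in sham myocardium. Cells were again below all myocardial arrays, and the PBS array stood above the other myocardial ones. The difference of -1.78 (SE 0.21) made Pgf 3.43-fold lower in the cells (limma, adjusted p = 0.000479). A second Pgf probe was well above background on only 1 array and gave -1.65.

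Vegfc, the ligand of Flt4 that drives growth of lymphatic vessels, went the other way within the same family. It stood at 3.22 and 3.16 in labelled and unlabelled cells, against 0.26 and 0.52 in treated, 0.61 in PBS and 0.38 in sham myocardium. The cell arrays lay close together and far above all myocardial arrays. The difference was 2.75 (SE 0.14), 6.72-fold higher in the cells (limma, adjusted p = 1.21e-05).

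The stretch of 250 bases before the transcription start of the VEGF ligands that moved in opposite directions, and of Fgf2, is shown because it is the sequence through which their transcription is partly set. Sequences are from RefSeq, build GRCr8, printed on the gene's strand. Capitals mark a GC box (GGGCGG or its reverse complement CCGCCC) or the core of the hypoxia response element (ACGTG or GCGTG, or the reverse complements CACGT and CACGC), and matches may overlap or adjoin. Vegfa lies at chr9:22452604-22452853 on the plus strand, Vegfb at chr1:213607153-213607402 on the minus strand, Vegfc at chr16:44560888-44561137 on the minus strand and Fgf2 at chr2:122164204-122164453 on the plus strand.
Vegfa: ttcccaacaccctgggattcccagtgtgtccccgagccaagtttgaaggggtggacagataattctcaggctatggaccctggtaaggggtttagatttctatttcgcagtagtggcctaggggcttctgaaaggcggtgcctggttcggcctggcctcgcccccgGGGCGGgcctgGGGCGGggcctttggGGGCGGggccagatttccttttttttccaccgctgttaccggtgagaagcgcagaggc
Vegfb: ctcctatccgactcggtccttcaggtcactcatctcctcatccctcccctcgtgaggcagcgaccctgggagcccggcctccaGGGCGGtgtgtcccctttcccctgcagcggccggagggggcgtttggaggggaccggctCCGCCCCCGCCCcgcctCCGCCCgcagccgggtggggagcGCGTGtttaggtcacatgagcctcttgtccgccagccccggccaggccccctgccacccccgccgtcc
Vegfc: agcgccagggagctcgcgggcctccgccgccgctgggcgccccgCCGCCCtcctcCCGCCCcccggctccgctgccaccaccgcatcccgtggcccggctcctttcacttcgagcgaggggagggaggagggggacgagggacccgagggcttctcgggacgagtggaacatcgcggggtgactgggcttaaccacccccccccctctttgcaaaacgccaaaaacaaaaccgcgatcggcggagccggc
Fgf2: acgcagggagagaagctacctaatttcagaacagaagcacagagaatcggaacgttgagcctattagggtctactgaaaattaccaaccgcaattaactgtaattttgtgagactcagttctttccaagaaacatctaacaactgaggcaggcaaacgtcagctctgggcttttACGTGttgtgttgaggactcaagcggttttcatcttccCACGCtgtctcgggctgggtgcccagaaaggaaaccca
Vegfa has 3 GC boxes in this window and no hypoxia core, Vegfb has 4 and 1, Vegfc has 2 and 0, and Fgf2 has 0 and 2. A GC box is present in 30.5% and a hypoxia core in 36.7% of 33469 rat promoter windows of the same length. The RefSeq table held a promoter for 7 of the 10 members, the others being Angpt1, Angpt2 and Nrg1. Vegfa had a second window, with neither motif, Pgf had 2 GC boxes and 1 core, Pdgfa 1 GC box and no core, and Hgf neither. Letters of this kind are a description of the sequence and say nothing of whether a factor binds there.

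Angpt1 and Angpt2 compete for the receptor Tek. Angpt1, made by perivascular and muscle cells, steadies vessels, and Angpt2, released by endothelial cells, loosens them during remodelling. Angpt1 was at -1.97 and -1.75 in labelled and unlabelled cells, against -0.64 and -0.44 in treated, 0.01 in PBS and -0.38 in sham myocardium. The groups did not overlap, and the difference was -1.49 (SE 0.20), 2.82-fold lower in the cells (limma, adjusted p = 0.000783). Angpt2 was measured at -8.87 and -8.81 in the cells, not well above background on either array, against -3.76 and -3.44 in treated, -3.21 in PBS and -3.52 in sham myocardium, all well above background. In the main setting Angpt2 was at least 15.8-fold lower in the cells (limma, adjusted p = 2.12e-06 on the measured values). That bound sets the myocardial mean against the lowest signal that passed as well above background on the cell arrays. The fitted difference of -5.36 was -2.41 with normexp background correction, which falls short of the bound. Summed endothelial markers were 1.21 and 0.87 in the cells, against 30.7 to 36.9 in myocardium, and the part of cell make-up in this and the other differences between cells and myocardium was not tested.

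Fgf2, a mitogen of endothelial and stromal cells that lacks a signal peptide, was at -1.06 and -0.93 in labelled and unlabelled cells, against -3.37 and -3.27 in treated, -2.90 in PBS and -3.62 in sham myocardium. The cells were above every myocardial array. The difference was 2.29 (SE 0.21), 4.90-fold higher in the cells (limma, adjusted p = 0.000145), and with normexp it was 1.68. Hgf, the ligand of Met secreted by stromal cells, was dim throughout. It was at -4.73 in labelled and -4.12 in unlabelled cells, well above background on both, against -5.87 and -6.16 in treated, -5.61 in PBS and -5.67 in sham myocardium, where the PBS array alone passed as well above background. The difference of measured values was 1.40 (SE 0.24, limma, adjusted p = 0.00219), set against a group in which 1 of 4 arrays was detected, but with normexp background correction it was -0.04 (adjusted p = 0.853). Whether the difference was above 0 therefore depended on the processing. Normexp was run with an offset of 50, and the parts of the offset and of the background estimate were not tested apart. Processed Hgf signals were 98.3 and 136 in the cells and 14.8 to 22.9 in myocardium. Relative to the median of all features, Hgf was above 0 in all 4 settings (0.40 to 1.72).

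Pdgfa, a mitogen of mesenchymal cells through Pdgfra, was nearly level: 2.62 and 2.49 in labelled and unlabelled cells, against 2.45 and 2.59 in treated, 2.59 in PBS and 2.51 in sham myocardium. The groups overlapped, and the difference of 0.02 (SE 0.11) did not pass (limma, adjusted p = 0.879). Its second probe gave 0.14. With arrays scaled to their median the difference was 0.32 (adjusted p = 0.0422). Nrg1, whose binding to Erbb4 on cardiomyocytes sustains the adult heart, was the most variable member, at -4.99 and -4.52 in the cells, against -3.56 and -4.70 in treated, -6.68 in PBS (not well above background) and -3.85 in sham myocardium. The difference of -0.06 (SE 0.86) did not pass (limma, adjusted p = 0.958). With normexp it was -0.71 (adjusted p = 0.0392), beside a median of -0.44 over all features.

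**Figure D2:**
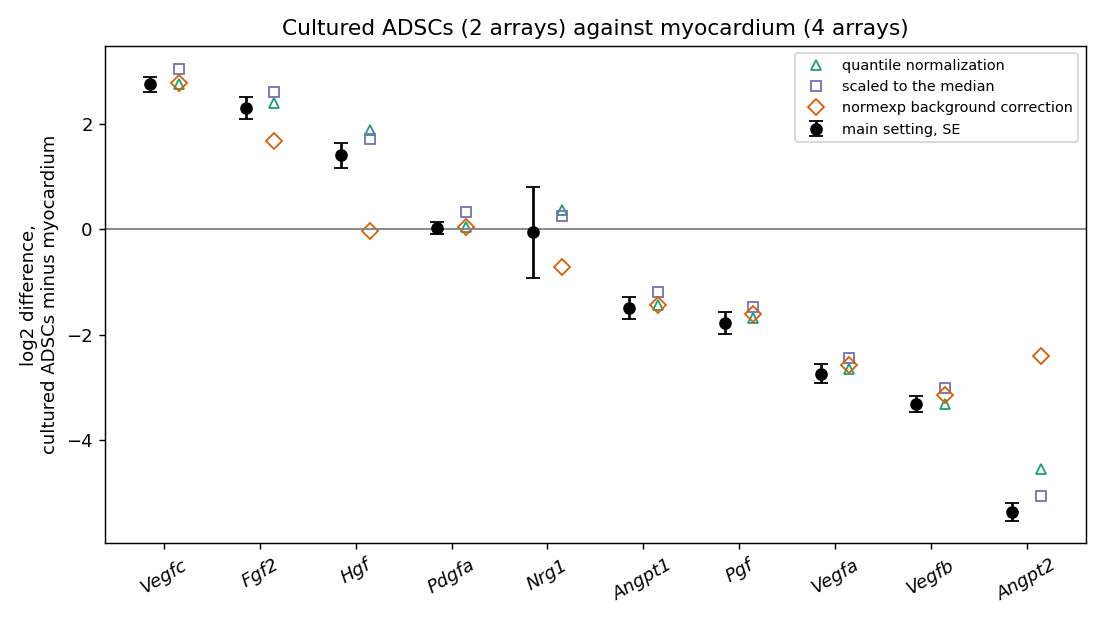
Log2 difference of each growth factor, cultured ADSCs (2 arrays) minus myocardium (4 arrays). Filled circles with SE bars are the main values, open symbols the same difference under 3 other scalings or background corrections. Vegfc and Fgf2 stay above 0 and Vegfa, Vegfb, Pgf, Angpt1 and Angpt2 below 0 in all of them, while Hgf is at -0.04 with normexp.

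Because most features differed, these differences were set against the median of all features, which was -0.05 in the main setting, -0.44 with normexp, 0.17 with quantile normalization and 0.25 with median scaling. Of the features that passed, 48.0% were higher in the cells in the main setting, 33.7% with normexp, 56.4% with quantile normalization and 59.4% with median scaling. Relative to those medians, Vegfa lay between -2.83 and -2.14, Vegfb between -3.48 and -2.71, Pgf between -1.86 and -1.17 and Angpt1 between -1.61 and -0.997. Vegfc lay between 2.59 and 3.22, Fgf2 between 2.12 and 2.34 and Hgf between 0.40 and 1.72. Pdgfa and Nrg1 took both signs, from -0.14 to 0.49 and from -0.27 to 0.19.

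Of 18 receptors and co-receptors of these ligands, all on the array, 7 were higher and 8 lower in the cells, beside 32.9% and 35.6% of all features. The median difference was -0.12, and with normexp the counts were 6 higher and 9 lower. Lower were the VEGF receptor Kdr (difference -4.50, SE 0.23, limma, adjusted p = 1.24e-05), Flt1 (-1.82), the VEGF co-receptor Nrp1 (-2.43) and Tek (-3.09). Tie1, an orphan partner of Tek, was not well above background on either cell array. By a bound in the main setting, Tie1 was at least 56.5-fold lower. The neuregulin receptor Erbb4 was at least 8.60-fold lower and Erbb3 at least 2.72-fold lower by the same bound, Erbb3 being detected on 2 of the 4 myocardial arrays and not called under every alternative (adjusted p up to 0.0774). Flt4, the Vegfc receptor, was at -0.60 but took the other sign under another setting (range -0.74 to 0.13). Over the alternatives the difference nearest 0 was -3.84 for Tie1, -2.03 for Tek and -1.67 for Erbb4, with the same sign.

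Higher in the cells were Egfr, a partner receptor in the Erbb family (4.07, SE 0.18, limma, adjusted p = 8.09e-06), and the receptors of Pdgfa and its relatives, Pdgfra (3.27, SE 0.20, adjusted p = 2.93e-05) and Pdgfrb (1.73). Pdgfra was at 4.43 and 4.44 in labelled and unlabelled cells, against 0.90 and 0.93 in treated, 1.42 in PBS and 1.42 in sham myocardium, so that its groups were apart while those of its ligand Pdgfa overlapped. Of the Fgf2 receptors, Fgfr1 was higher by 1.74 and Fgfr2 by 0.80, while Fgfr3 (0.24) and Fgfr4 (-0.47) did not pass. Met, the Hgf receptor, detected on 2 of the 4 myocardial arrays, was at 0.73 but took both signs over the alternatives (range -0.32 to 1.24). Nrp2, detected on 1 of the 4 myocardial arrays, was at 1.57 on the measured values, and at 0.05 with normexp. Erbb2 (0.65, limma, adjusted p = 0.0508) did not pass.

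**Figure D3:**
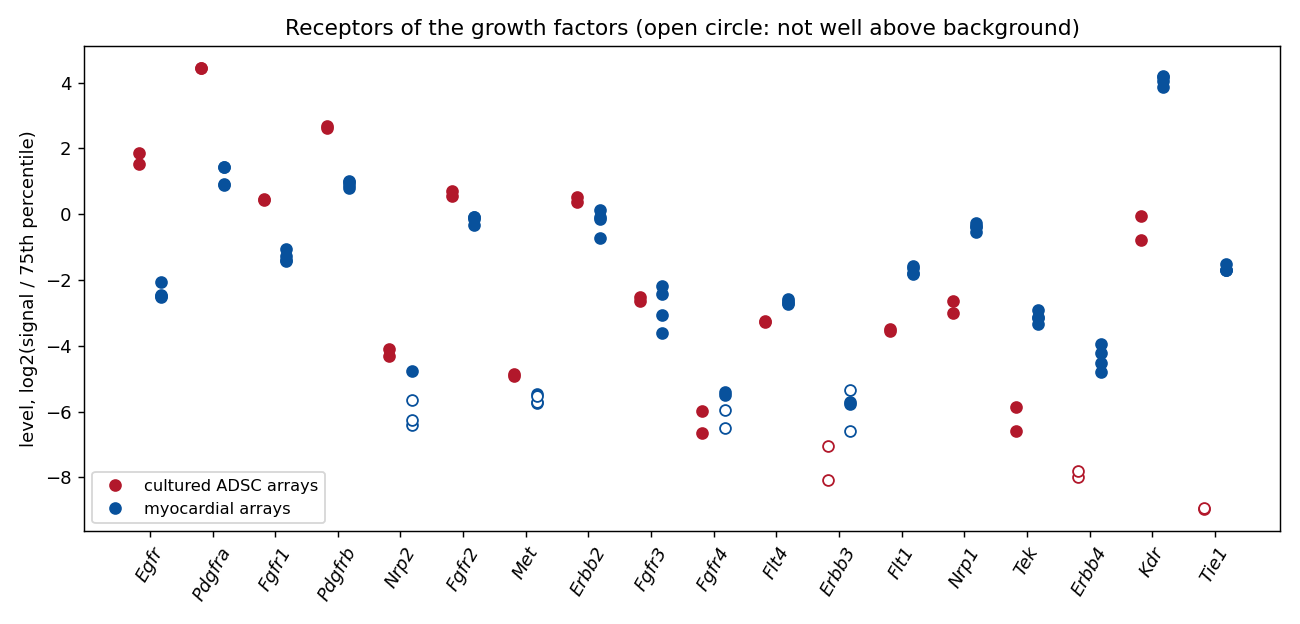
Level of 18 receptors of the growth factors on the 2 cell arrays and the 4 myocardial arrays, as log2 of signal over the array's 75th percentile, ordered by the difference. Points are single arrays, and open circles were not well above background. Levels of different genes come from different probes and are not comparable. Egfr and Pdgfra stand highest above myocardium in the cells, Tie1 and Kdr furthest below it.

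Related ligands outside the 10 were mostly higher in the cells: of 24, all on the array, 22 were tested, 14 higher and 7 lower. Of all features, 32.9% were higher and 35.6% lower. The median difference was 1.26, against -0.05 for all features. This list and the other gene lists were chosen with earlier results of these data known, so their counts are a description. In the main setting Angpt4, another ligand of Tek, was at least 263-fold higher in the cells, where the other angiopoietins were lower. Fgf7, a stromal mitogen for epithelium, differed by 6.32 (SE 0.75, limma, adjusted p = 0.000444) and was well above background on 1 of 4 myocardial arrays. Fgf16, a cardiac fibroblast growth factor, was at least 27.3-fold lower in the cells in the main setting. In the same setting Pdgfb, the endothelial and platelet partner of Pdgfa, was at least 9.38-fold lower. Over the alternatives the difference nearest 0 was 5.32 for Angpt4, 3.62 for Fgf7, -2.80 for Fgf16 and -1.68 for Pdgfb, so each kept its sign.

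Proteins that free or process the ligands, and proteins that block them, were taken next. Of 22 activators and matrix-release genes, 17 were on the array and 14 tested, 10 higher and 1 lower in the cells (median 1.41). The shares of all features were 32.9% higher and 35.6% lower, here and for the inhibitors below. The membrane metalloproteinase Mmp14 was higher by 5.04 (SE 0.22, limma, adjusted p = 6.72e-06) and the heparan sulphate carrier Sdc1 by 4.55 (SE 0.37, adjusted p = 8.69e-05). Gpc1, another heparan sulphate carrier, was at -0.69 (adjusted p = 0.0078, up to 0.0811 under the alternatives). Of 21 angiogenesis inhibitors and traps, 15 were on the array and 13 tested, 9 higher and 2 lower (median 0.87). The thrombospondins, secreted inhibitors of vessel growth, were among the highest. In the main setting Thbs1 was at least 115-fold higher and Thbs2 was higher by 6.50 (SE 0.17, limma, adjusted p = 9.72e-07). Timp3, which can block Vegfa at Kdr, was lower, at -4.62 (SE 0.15, adjusted p = 2.15e-06). Nearest 0 over the alternatives, Thbs1 was at 4.14 and Timp3 at -3.05. Sema3a, a Nrp1 ligand, was at -0.93 (adjusted p = 0.00342, up to 0.0829 under the alternatives).

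Hypoxia is the best known inducer of Vegfa. Of 20 hypoxia-response genes, 19 were on the array and tested, 9 higher and 5 lower in the cells (median 0.48). Beside them, 32.9% of all features were higher and 35.6% lower, so these counts do not set the list far apart. With normexp the hypoxia counts were 8 higher and 7 lower, with a median of -0.04, beside -0.44 for all features. The same setting gave 13 higher and 8 lower for the related ligands, 9 and 2 for the activators and 9 and 3 for the inhibitors. The collagen hydroxylase P4ha1 was higher by 3.44 (SE 0.16, limma, adjusted p = 1.01e-05) and the vessel-dilating peptide Adm by 2.99 (SE 0.15, adjusted p = 1.31e-05). Epas1, a hypoxia-inducible factor first found in endothelium, was lower, at -3.48 (SE 0.17, adjusted p = 1.21e-05), as was the oxygen sensor Egln3, at -2.52 (SE 0.18, adjusted p = 5.22e-05).

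In infarcted hearts given labelled ADSCs, no growth factor differed from the PBS heart by the test. Treated minus PBS was 0.30 for Vegfa, 0.41 for Vegfb, -0.22 for Vegfc, -0.61 for Pgf, -0.55 for Angpt1, -0.39 for Angpt2, -0.40 for Hgf, -0.43 for Fgf2 and -0.07 for Pdgfa. Both treated arrays lay on the same side of the PBS array for all 10 members, Nrg1 included, and for 72.4% of features. For Pdgfa this hangs on a difference of -0.0003 in treated replicate 3, and Hgf was not well above background on either treated array. Adjusted p-values from limma ran from 0.432 to 0.924 over the 10 members, and none of 19607 features was called, while 9.4% had an unadjusted p under 0.05, Nrg1 and Pgf among them. The fit has 1 residual degree of freedom, from the treated pair. Of the members well above background on all 3 arrays, 0 of 8 were 2-fold apart in both treated arrays, where 1.23% of 17338 features were.

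Nrg1 was not well above background on the PBS array and was at least 5.34-fold higher in the treated pair (differences of 3.12 and 1.99 on the measured values, limma, unadjusted p = 0.0168, adjusted p = 0.432). That bound holds in the main setting only, and with normexp background correction the Nrg1 difference was 0.76. The treated pair itself differed by 1.14 in Nrg1, the widest gap between those arrays of any member. In the other 9 the gap was 0.10 to 0.32.

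For each member the mean of the treated arrays lay nearer the sham array than the PBS array, with 1 array of each. The share of all features for which this held was not taken. Treated minus sham was -0.22 for Vegfa, 0.06 for Vegfb, 0.01 for Vegfc, -0.02 for Pgf, -0.17 for Angpt1, -0.08 for Angpt2, -0.34 for Hgf, 0.30 for Fgf2, 0.01 for Pdgfa and -0.27 for Nrg1. For 5 members the sham array lay between the treated arrays, so the sign differed within the pair, while both treated arrays lay on the same side of sham for 74.5% of features. Both treated arrays were below sham for Vegfa, Angpt1 and Hgf and above it for Vegfb and Fgf2. Limma's adjusted p-values ran from 0.636 to 0.991, none of the 19607 features was called, and 9.43% had an unadjusted p under 0.05. Of the 9 members well above background on these arrays, 0 were 2-fold apart, against 0.944% of 17052 features.

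The PBS heart and the sham heart, with 1 array each, can be compared only by value. PBS minus sham was 0.72 for Fgf2, 0.59 for Pgf, 0.39 for Angpt1, 0.32 for Angpt2, 0.22 for Vegfc, 0.09 for Pdgfa and 0.06 for Hgf, and it was -0.52 for Vegfa and -0.35 for Vegfb. Among the 8 members detected well above background in both hearts, 0 differed by 2-fold, against 3.54% of 17255 features. Nrg1 was at least 6.46-fold lower on the PBS array, by a bound that holds in the main setting only. The PBS array was the highest of the 4 myocardial arrays for 7 members and the lowest for 3 (Vegfa, Vegfb and Nrg1). It was thus at an end for all 10, though treated replicate 3 minus PBS was only -0.0003 for Pdgfa. Of 19607 features, the PBS array was highest for 24.9%, lowest for 29.3% and at either end for 54.2%. This count was chosen after the values were seen, and it was 8 of 10 with normexp, 9 of 10 with quantile normalization, median scaling or the mean of all probes, and 8 of the 8 members in the deposited table.

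**Figure D4:**
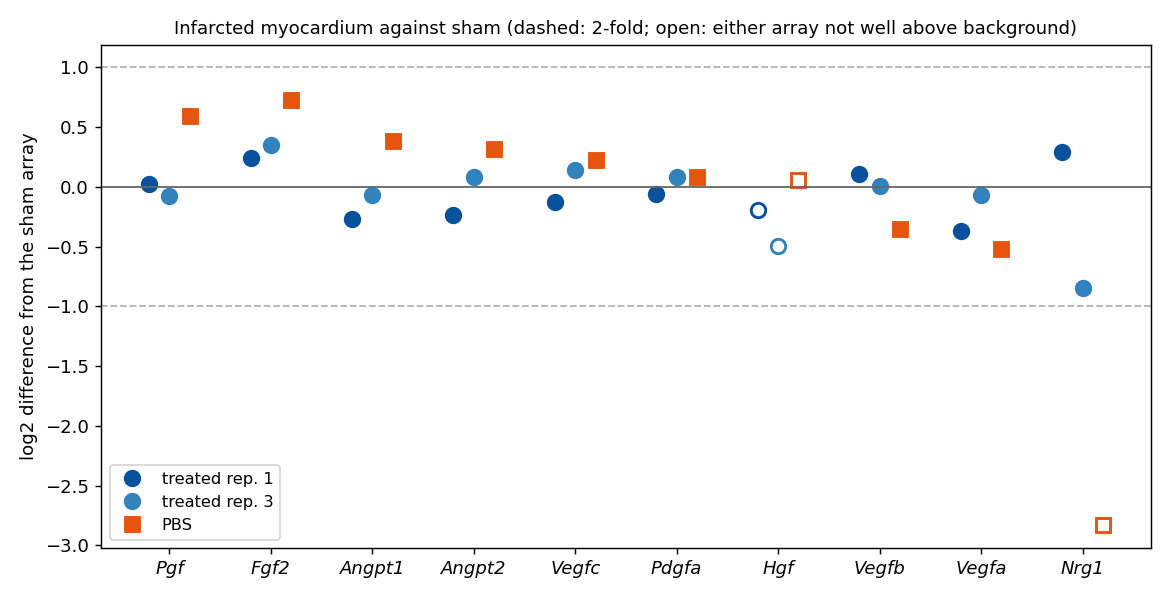
Log2 difference of each growth factor from the sham array for the treated replicates (circles) and the PBS array (squares). Each symbol is 1 array, with no error bar, dashed lines mark 2-fold, and open symbols mean that either array was not well above background. Treated arrays lie near 0 for most members, and the PBS array lies furthest out for Fgf2 and Pgf upward and for Nrg1 downward.

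The PBS array also differed from the others in atrial genes. Myl7, the atrial myosin light chain, was at 2.02 and 0.83 in treated, 7.60 in PBS and -0.46 in sham myocardium, and the atrial peptide Nppa was at 5.13 and 3.37, 6.49 and 2.80 on the same arrays. Summed mesothelial markers were 0.64 and 0.72 in treated, 3.76 in PBS and 0.65 in sham myocardium, against 2.15 and 2.36 in cultured labelled and unlabelled cells. In PBS the sum came mostly from Msln (level 0.94) and Upk1b (-0.10). Wt1 (-1.47 to -1.26) and Tbx18 (-2.27 to -1.99) were nearly level over the myocardial arrays. Whether the piece of heart sampled had a part in the growth factor values of the PBS array was not tested.

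Tracer labelling went with small differences in the cultured cells, 1 array each. Labelled minus unlabelled was -0.62 for Hgf, -0.47 for Nrg1, -0.23 for Vegfa, -0.22 for Angpt1, -0.15 for Pgf, -0.12 for Fgf2, -0.07 for Vegfb, 0.06 for Vegfc and 0.14 for Pdgfa. Among the 9 members detected well above background in both cultures, 0 differed by 2-fold, against 1.02% of 18271 features. The widest gaps belong to Hgf and Nrg1, which were also dim. There is no replicate check for these values. Of the 18 receptors, 15 were measured on both cell arrays and 0 were 2-fold apart.

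For the members read well above background on all 6 arrays, the genes with the nearest pattern were found among the 15443 named genes, by the root mean square difference over the 6 arrays after centring each gene on its mean. For Vegfa they were Impa2 (0.0521) and Ndufaf8 (0.0889), and for Vegfb Rilp (0.0576). For Vegfc they were the endoplasmic reticulum peroxiredoxin Prdx4 (0.0405) and Ifitm3 (0.0607), and for Fgf2 Bcl3 (0.0523) and the myelin protein Pmp22 (0.0763). Pgf had Wwox (0.0688) and Sval2 (0.0817, not well above background on any array), Angpt1 had the glutamate receptor subunit Gria3 (0.0626) and Cd4 (0.0744, well above background on 1 array), and Pdgfa had Tmem41b (0.0303) and Cep290 (0.0386). These are likenesses in level over 6 arrays that share 2 sources, given as a description.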

How the data were processed

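Per the labels, total RNA from rat myocardium or cultured cells was purified on columns and carried Cy3 from an Agilent Quick Amp reaction. The authors deposited scanner intensity values per array (from Agilent Feature Extraction, version 11.0.1.1 according to the submitters' processing notes). They also deposited a log2 table, whose processing is not given in the sources consulted. That table has 1 median for the 4 myocardial arrays (8.85) and another for the 2 cell arrays (9.67). It thus appears to have been normalized separately and served as an alternative within each source only.

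From the log2 of each processed signal the array's 75th percentile was subtracted, taken over all non-control spots. Control and outlier-flagged spots were left out, spots of a probe were averaged, and a probe counted as well above background where at least 1 in 2 of its spots did. All 6 arrays lay on 1 slide. Of 30367 probes, 18355 were named by unversioned accession through RefSeq (GRCr8, whereas the file headers give an older build) and 12012 were not. A gene was read from its brightest probe; an unnamed probe stood for itself.

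Cells against myocardium was fitted on all 6 arrays, and treated against PBS or sham on the 4 myocardial arrays, with limma 3.58.1 under R 4.3.3 (eBayes after lmFit, with p-values adjusted by Benjamini-Hochberg) using features that were well above background on 1 or more of the arrays compared. The fit was tested on simulated data. A gene measured on 1 side only received a bound, taken from the bright group's mean. That mean was set against the lowest signal well above background on the dim arrays or the probe's own signal, whichever was higher. Bounds hold in the main setting only, and some differences under the alternatives fell short of them. Normexp (offset 50) used the median signal in place of the mean signal. Features counted as 2-fold apart had to be well above background on every array compared and to move the same way in both treated arrays.

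The members and gene lists were chosen with earlier results of these data known. Named genes are the 10 members, up to 4 called genes of each list (the 2 highest and 2 lowest), the receptors, and the 2 nearest patterns. A gene that this rule gives is not included. The lists of endothelial, cardiomyocyte, stromal, smooth muscle, leukocyte, mesothelial and Schwann cell markers were used for checks. Figures were drawn with matplotlib 3.10.9.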

Additional observations from a re-analysis of the deposited data

Results flagged for a closer look

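Pgf on the PBS array stood apart from the other myocardial arrays. Its level there was -0.355 (log2 of signal over the array's 75th percentile), against -0.92 and -1.02 on the treated arrays and -0.94 on the sham array, and the gap to the nearest of these was 0.843 of the whole range, above Dixon's critical value at 95% for 4 arrays. Chance flags about 1 in 20 such groups of independent arrays of the same condition, and 10 growth factors were looked at. These arrays hold treated, PBS and sham conditions, and the treated pair differed by only 0.10 in Pgf. That rate may therefore not hold here. The second Pgf probe was also highest on the PBS array, at -5.39, against -6.70 and -5.85 on the treated arrays and -6.30 on the sham array.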

How the results depend on the processing

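Over the alternatives run, the differences between cultured ADSCs and myocardium kept their sign and their call for Vegfa (-2.85 to -2.43), Vegfb (-3.41 to -3.01), Vegfc (2.69 to 3.05), Pgf (-1.86 to -1.48), Angpt1 (-1.60 to -1.19), Angpt2 (-5.45 to -2.41) and Fgf2 (1.68 to 2.60), whichever array was left out. Hgf was at -0.038 with normexp background correction, and the cause was not tested. Pdgfa passed with median scaling (0.32) and Nrg1 with normexp (-0.71), and both took both signs. The features lower in the cells numbered 12029 of 27443 with no filter on dim probes, where more features were tested, against 7536.

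The counts between myocardial conditions depended on the processing, with 0 features called in the main setting. Treated against PBS gave 19 features higher and 88 lower with normexp, 12 and 37 with trended, robust variances, and 11 lower where over 1 in 2 spots had to pass, an alternative chosen after seeing the data. Treated against sham gave 24 higher and 33 lower with normexp, 34 and 25 with trended variances, 1 and 2 with probes well above background on every array, and 2 lower with the deposited table. No member was called in any of these. Features 2-fold apart numbered 24 higher and 66 lower with normexp for treated against PBS (72 and 141 in the main setting), and 155 to 184 higher and 244 to 345 lower with 1 treated array, since both no longer had to move. For treated against sham they numbered 38 and 32 with normexp (90 and 71 in the main setting), and 159 to 215 higher and 181 to 208 lower with 1 treated array. PBS against sham gave 135 and 105 with normexp (372 and 239), and labelled against unlabelled cells gave 46 and 30 with normexp (81 and 105), and 52 lower with quantile normalization. The PBS array was at an end of the 4 myocardial arrays for 8 to 10 members over 6 settings, 1 of which holds only 8 members, chosen after seeing the data.

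No paired analysis was possible because the groups compared share fewer than 2 replicate numbers. The deposited table was not run for cells against myocardium, since it appears to have been normalized separately. Angpt2, Hgf and Nrg1 have no value where a probe had to be well above background on every array. Dim signals limit those 3 members most.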
